A study of Mus musculus with 8 samples.

Results

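The genes described here are 7 histone acetyltransferases (Ep300, Crebbp, Kat2a, Kat2b, Kat5, Kat6a and Kat7) and 3 enzymes that supply their substrate, acetyl-CoA (Acly, Acss1 and Acss2). They were chosen by symbol, and all 10 were found among the 25237 genes of the table. RNA was sequenced from muscle stem cells sorted from hindlimb muscle, with 4 libraries from mice given ketone bodies and 4 from mice given phosphate-buffered saline (PBS). All mice were wild type males of 2 to 4 months, and the cells were sorted as VCAM1+/CD31-/CD45-/Sca1-. The strain entry reads C57BL/7, C57BL/8, C57BL/9 and C57BL/9 for ketone libraries 1 to 4, against C57BL/6 for each PBS library. The labels do not say whether these entries name strains, and if they do, strain and treatment cannot be told apart. They also leave out the dose, route and length of treatment and whether each library is 1 animal, so a p-value here measures the spread between these libraries.

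Histone acetyltransferases move the acetyl group of acetyl-CoA onto lysines of histone tails, which loosens chromatin and creates docking sites for reader proteins. Acetyl-CoA does not cross the inner mitochondrial membrane freely: ATP citrate lyase (ACLY) regenerates it in the cytosol and nucleus from exported citrate, ACSS2 makes it there from acetate, and ACSS1 makes it from acetate inside mitochondria. Ketone bodies are broken down to acetyl-CoA in mitochondria, and beta-hydroxybutyrate is also known as an inhibitor of histone deacetylases. In muscle cells p300 and PCAF are known as coactivators of the myogenic factor MyoD.

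Depth ran from 19174005 to 36870537 reads per library. Muscle stem cell markers were present in both groups, with Pax7 at 1500 to 2014 normalized counts (reads divided by 1 factor per library) in ketone libraries and 1858 to 2541 in PBS libraries. Of the genes of the sort, Vcam1 was at 15580 to 40055 normalized counts in ketone libraries and 38702 to 46391 in PBS libraries, with ketone libraries 1 to 3 below every PBS library. Pecam1 (CD31) was at 2130 to 5606 normalized counts in ketone libraries and 649 to 907 in PBS libraries, Ly6a (Sca1) at 2320 to 6102 and 506 to 569, and Ptprc (CD45) at 21.1 to 299 and 16.1 to 28.4. Transcripts of CD31 and Sca1, which the sort selects against, were thus higher in every ketone library than in any PBS library. Of 15 stem cell markers 1 rose and 7 fell, beside 12.8% of all tested genes in each direction. The summed level of these markers ran from 359642 to 509538 in ketone libraries and from 465448 to 505350 in PBS libraries. Ketone libraries 1 and 2 stood apart in the ribosomal RNA precursor Rn45s, with 363069 and 396262 normalized counts, while it had 62561 and 60108 in ketone libraries 3 and 4 and 79005 to 118863 in the PBS group. All 17 endothelial markers rose, with a summed level of 33644 to 82440.5 normalized counts in ketone libraries and 9837 to 12352 in PBS libraries, and none of them was at 0 throughout either group. Values without ketone libraries 1 and 2 are given for those of the genes described here whose call they change or whose value they move by over 1.5 times. They are given beside some of the other results only. A marker, complex or related gene without them need not be stable to leaving these libraries out.

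The promoters of the 3 supply enzymes are shown first, because Acly and Acss2 are known targets of the sterol regulatory element-binding proteins (SREBPs), and the SREBP genes differed between the groups. Each is the RefSeq window from 250 bases before to 50 bases after the start used by RefSeq in GRCm38.p6, 5′ to 3′. For Acss1 and Acss2 this start differs from the start of the gene position given below, which is from GENCODE. The Acss1 window lies wholly inside the GENCODE gene. Capitals mark the GC box GGGCGG and the CCAAT box on either strand. The windows are chr2:150668191-150668490 on the minus strand for Acss1, chr2:155517793-155518092 on the plus strand for Acss2 and chr11:100527951-100528250 on the minus strand for Acly.
Acss1: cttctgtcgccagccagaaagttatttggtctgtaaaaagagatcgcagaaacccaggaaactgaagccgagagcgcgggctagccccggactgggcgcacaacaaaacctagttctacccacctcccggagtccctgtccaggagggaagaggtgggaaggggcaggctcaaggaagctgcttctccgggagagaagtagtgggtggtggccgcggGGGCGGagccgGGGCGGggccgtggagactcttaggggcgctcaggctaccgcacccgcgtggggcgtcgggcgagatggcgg
Acss2: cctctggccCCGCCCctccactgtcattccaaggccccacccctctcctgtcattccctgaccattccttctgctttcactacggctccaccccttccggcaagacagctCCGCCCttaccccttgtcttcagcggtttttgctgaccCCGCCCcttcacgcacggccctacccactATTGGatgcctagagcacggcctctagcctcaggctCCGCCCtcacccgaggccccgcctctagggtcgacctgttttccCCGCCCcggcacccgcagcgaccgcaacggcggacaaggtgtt
Acly: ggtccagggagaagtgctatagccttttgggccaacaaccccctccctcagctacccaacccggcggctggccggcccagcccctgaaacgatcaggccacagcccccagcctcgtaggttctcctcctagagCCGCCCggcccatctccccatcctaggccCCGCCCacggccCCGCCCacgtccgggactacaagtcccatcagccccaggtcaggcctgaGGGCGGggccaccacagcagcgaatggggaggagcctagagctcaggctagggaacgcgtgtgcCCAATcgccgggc

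The Acss1 window held 2 GC boxes and 0 CCAAT boxes, the Acss2 window 5 and 1, and the Acly window 4 and 1. Of all 32851 promoter windows 35.7% held a GC box and 37.4% a CCAAT box. A further 4 motifs were searched on both strands: the sterol regulatory element TCACNCCAC (in 1.24% of all windows), the E-box CACGTG (7.15%), the cAMP response element TGACGTCA (1.79%) and the PPAR response element, AGGTCA repeated after 1 base (0.0396%). The 3 windows shown matched these 4 motifs 0 times, and no match in them overlapped another. Of the windows of the other genes, 1 of 2 Kat5 windows held the sterol regulatory element, on the minus strand, and the other held an E-box. A missing match says only that these letters are not in this window.

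Most of the 10 transcripts did not pass the threshold set over all tested genes. Acss1 rose 3.21-fold and Kat2a fell to 0.681 of its PBS level, and the other 8 did not pass (limma, adjusted p below 0.05 over 14022 genes tested). The share of all tested genes that passed was 25.7%, with 12.8% higher and 12.8% lower, so 2 of 10 is near the background. The groups did not overlap for 3 of the 10 genes (Acss1, Kat2a and Acss2), against 28.3% of all tested genes (14.2% higher and 14.1% lower). At an unadjusted p below 0.05 were 5 of the 10, beside 37.7% of all tested genes. Without ketone libraries 1 and 2, 3 of the 10 passed (Acss1, Kat2a and Acss2), beside 33.4% of all tested genes. The median log2 change of the 10 was 0.08, beside -0.01 over all tested genes, and the median size of the change was 0.33 beside 0.41. In bulk RNA a change in the mix of cells and a change in RNA per cell cannot be told apart.

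**Figure D1:**
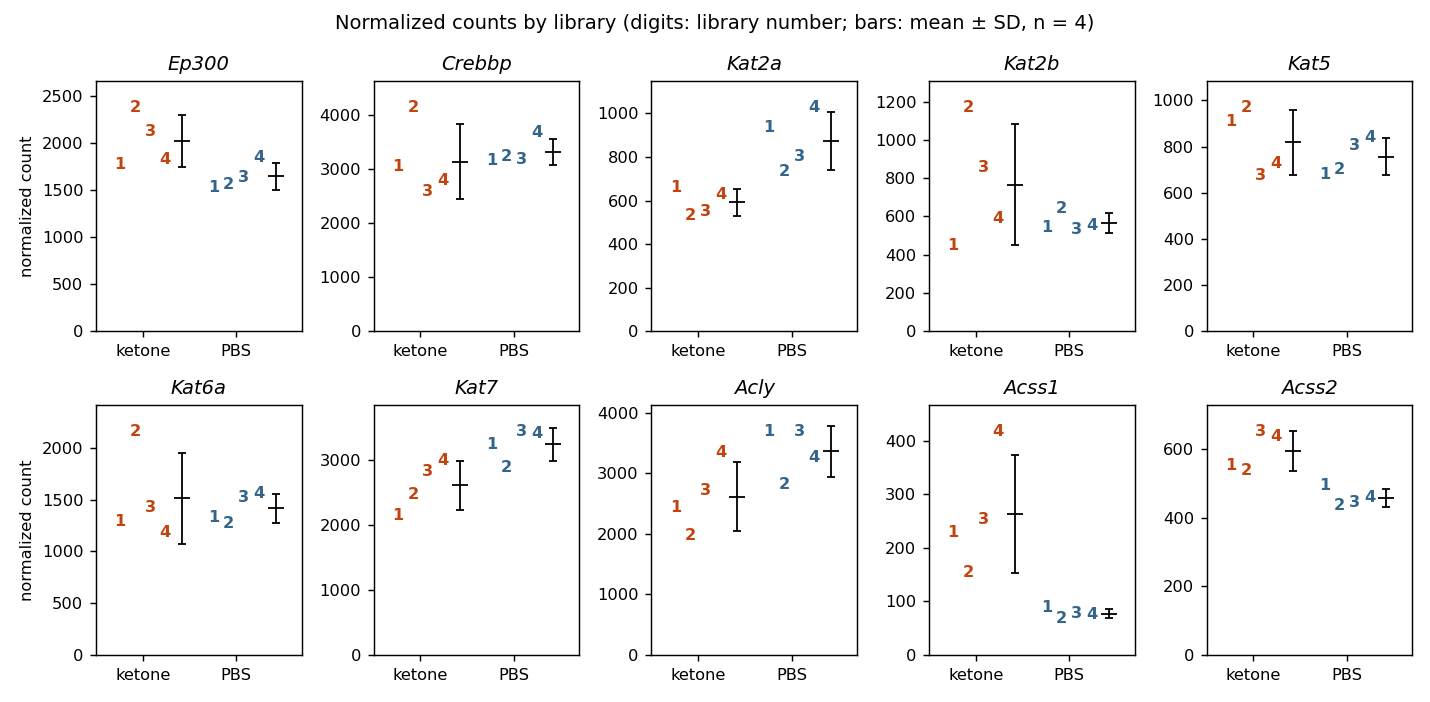
Normalized counts (y axes, each from 0) of the 10 genes in the 4 ketone and 4 PBS libraries. Digits are library numbers and bars the mean ± SD, and the groups do not overlap for Acss1, Kat2a and Acss2.

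**Figure D2:**
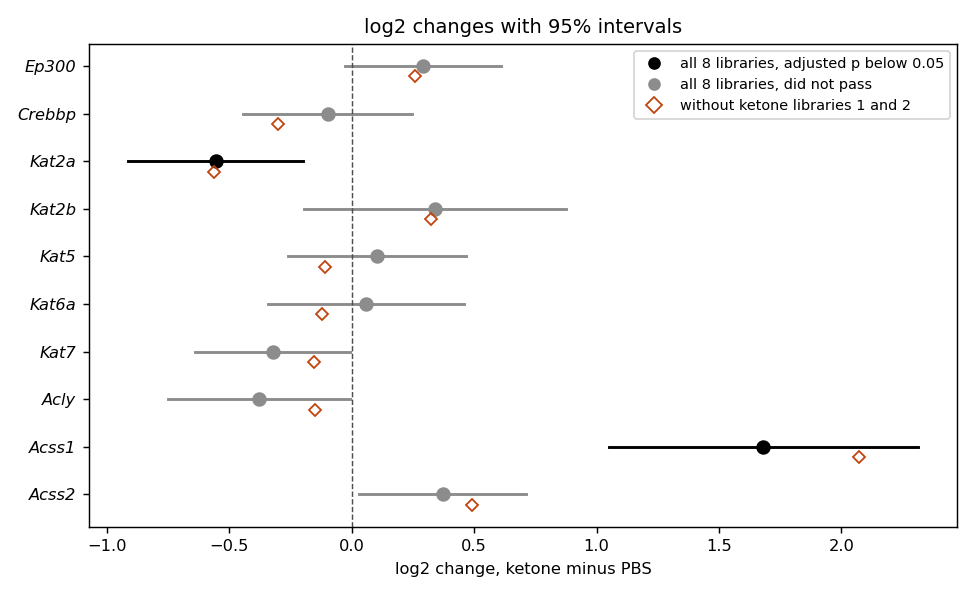
log2 change, ketone minus PBS (x axis), for each of the 10 genes, with limma's 95% interval as a line. Black marks Acss1 at 1.68 and Kat2a at -0.55, the 2 genes that passed, and diamonds give the change without ketone libraries 1 and 2.

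Acss1, the mitochondrial acetyl-CoA synthetase (chromosome 2, 150618105 to 150668500, minus strand), had 229, 155, 253 and 417 normalized counts in ketone libraries 1 to 4. In PBS libraries 1 to 4 it had 87.8, 67.2, 77.0 and 75.1. Every ketone library was above every PBS library, and ketone library 4 was the highest. The means were 263 ± 111 in ketone libraries and 76.8 ± 8.48 in PBS libraries (SD, n = 4 each). On the log2 scale the change was 1.68 ± 0.29 (SE), with a 95% interval of 1.05 to 2.31 (limma, adjusted p = 0.00101). It passed without any 1 library, with log2 changes of 1.43 to 1.91, and was 2.07 without ketone libraries 1 and 2.

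Several marker lists of other cells held more genes that rose than genes that fell, beside 12.8% of all tested genes in each direction. Endothelial markers passed in 17 of 17 genes, smooth muscle and pericyte markers rose in 8 and fell in 2 of 12, and tenocyte markers rose in 4 of 8. Schwann cell markers rose in 6 and fell in 1 of 10, blood and immune markers rose in 6 of 13, myofiber markers rose in 8 of 13, and fibro-adipogenic markers rose in 5 and fell in 3 of 11. Within the ketone group the summed endothelial level was 68814, 82440.5, 33644 and 70414 in libraries 1 to 4. Among ketone libraries Acss1 was lowest in library 2, and the endothelial sum was highest there. The summed tenocyte level was 18720, 17235, 20716 and 40303 in ketone libraries 1 to 4 and 4085 to 11920 in PBS libraries, with its highest value in the library highest for Acss1. The tenocyte list was picked out here after its values were seen. The trait is not particular to it: the summed Schwann cell level was 17614, 16788, 20093 and 22114 in ketone libraries 1 to 4. These sums rank the ketone libraries as Acss1 and the tenocyte sum do. The smooth muscle and pericyte sum was also highest in ketone library 4. Those of blood and immune, myofiber and fibro-adipogenic markers were highest in ketone library 1.

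The summed level was 1551 to 11487 in ketone libraries and 1061 to 1468 in PBS libraries for blood and immune markers, 4238 to 28540 and 3945 to 5153 for myofiber markers, and 16788 to 22114 and 14454 to 15433 for Schwann cell markers. It was 76138 to 92218 in ketone libraries and 88430 to 95143 in PBS libraries for smooth muscle and pericyte markers, and 65516 to 117134 and 111359 to 155430 for fibro-adipogenic markers. None of the markers in these lists was at 0 throughout either group. With the endothelial mean as a covariate, the log2 change of Acss1 was 2.07 (limma, adjusted p = 0.427), while 3 of all genes passed. The part of other cell types in the Acss1 result was not tested.

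**Figure D3:**
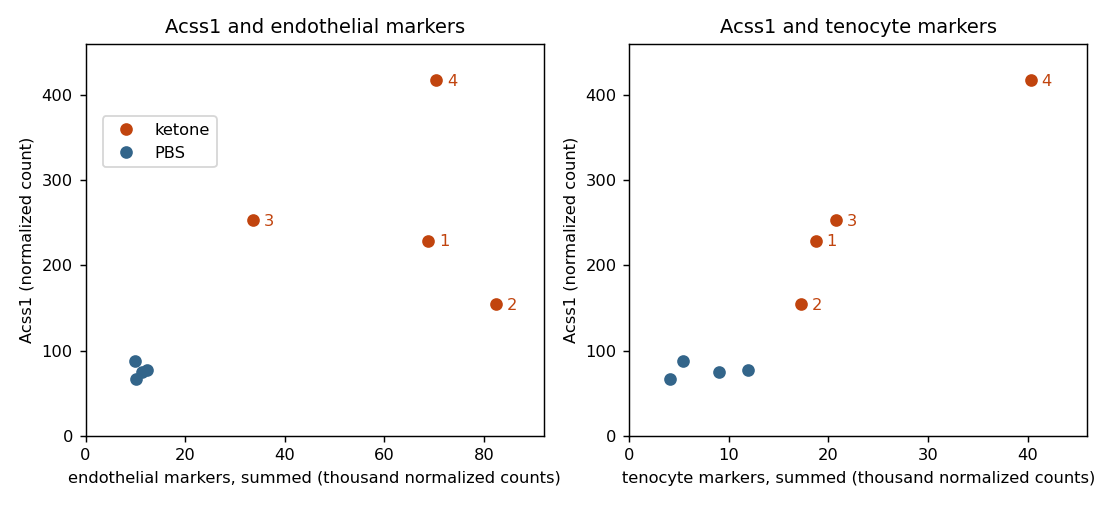
Acss1 (y axis, normalized count) against the summed normalized counts of 17 endothelial and 8 tenocyte markers (x axes), 1 point per library, with ketone libraries numbered. Ketone library 2 has the highest endothelial sum and the lowest ketone Acss1 value, and ketone library 4 has the highest tenocyte sum and the highest Acss1 value.

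The genes with the pattern most like Acss1 over the 8 libraries, each centred on its own mean, were Ecm2, Pdgfrb and Itgb7. Their root mean square differences from Acss1 were 0.20, 0.21 and 0.22 on the log2 scale, and their log2 changes were 1.48, 1.54 and 1.47. Pdgfrb, the receptor for platelet-derived growth factor B, is in the smooth muscle and pericyte marker list.

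Acss2, the acetyl-CoA synthetase of cytosol and nucleus (chromosome 2, 155517948 to 155585724, plus strand), had 553, 539, 651 and 637 normalized counts in ketone libraries 1 to 4. The PBS libraries had 495, 435, 445 and 459. The groups did not overlap, but the change did not pass: it was 0.37 ± 0.16 (SE) on the log2 scale, with a 95% interval of 0.03 to 0.71 (limma, adjusted p = 0.103). Without ketone libraries 1 and 2 it was 0.49 and passed (limma, adjusted p = 0.0247), as it did with library weights (limma, adjusted p = 0.0437). Its gene model overlaps Ggt7 and Gss on the opposite strand, which averaged 622 and 415 normalized counts in the ketone group, against 777 and 531 in the PBS group. Use of strand in counting is not stated, so reads in the overlaps are uncertain.

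Acly, ATP citrate lyase (chromosome 11, 100476353 to 100528000, minus strand), had 2433, 1966, 2716 and 3338 normalized counts in ketone libraries 1 to 4 and 3686, 2811, 3683 and 3256 in PBS libraries 1 to 4. Ketone libraries 1 to 3 were below every PBS library, and ketone library 4 was within the PBS range. Its log2 change was -0.38 ± 0.17 (SE), with a 95% interval of -0.75 to -0.01, and did not pass (limma, adjusted p = 0.125). It passed without ketone library 4, at -0.51 (limma, adjusted p = 0.049), and was -0.15 without ketone libraries 1 and 2.

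Among the acetyltransferases Kat2a was the member that passed. It encodes GCN5, the catalytic subunit of the SAGA and ATAC coactivator complexes (chromosome 11, 100704746 to 100712465, minus strand). Ketone libraries 1 to 4 had 660, 532, 549 and 627 normalized counts, and PBS libraries 1 to 4 had 936, 733, 800.3 and 1025. Every ketone library was below every PBS library. The means were 592 ± 61.2 in ketone libraries and 874 ± 132 in PBS libraries, a log2 change of -0.55 ± 0.17 (SE) with a 95% interval of -0.91 to -0.20 (limma, adjusted p = 0.0251). The call was lost without PBS library 1, 3 or 4 (limma, adjusted p = 0.0912, 0.0504 and 0.0976) and with equal totals (limma, adjusted p = 0.0614), with changes between -0.47 and -0.59. With the endothelial mean as a covariate it was -0.79 (limma, adjusted p = 0.594), and the part of other cell types was not tested. The genes most like Kat2a over the 8 libraries were Traf7, Cpsf1 and Suclg1, with root mean square differences of 0.07, 0.08 and 0.08 on the log2 scale.

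Kat2b encodes PCAF, the paralogue that can take the place of GCN5 in these complexes (chromosome 17, 53566861 to 53672720, plus strand). It had 450, 1168, 854 and 589 normalized counts in ketone libraries 1 to 4 and 541, 644, 534 and 551 in PBS libraries. Ketone library 1 was below every PBS library and ketone library 2 was the highest of all. The log2 change was 0.34 ± 0.25 (SE), with a 95% interval of -0.19 to 0.88, and did not pass (limma, adjusted p = 0.339). It was 0.57 without ketone library 1 and 0.11 without ketone library 2.

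Ep300 and Crebbp encode p300 and CBP, large paralogous coactivators that acetylate lysine 27 of histone H3 at enhancers. Ep300 (chromosome 15, 81585351 to 81652077, plus strand) had 1774, 2374, 2120 and 1820 normalized counts in ketone libraries 1 to 4, against 1529, 1563, 1636 and 1851 in PBS libraries 1 to 4. Only PBS library 4 reached into the ketone range, and the log2 change of 0.29 (95% interval -0.02 to 0.61) did not pass (limma, adjusted p = 0.164). Crebbp (chromosome 16, 4081328 to 4213997, minus strand) had 3059, 4142, 2593 and 2793 normalized counts in ketone libraries 1 to 4, against 3163, 3242, 3186 and 3680 in PBS libraries. Ketone libraries 1, 3 and 4 were below the PBS range and ketone library 2 was above it, and the log2 change was -0.10 (95% interval -0.44 to 0.25). It was -0.24 without ketone library 2 and -0.30 without ketone libraries 1 and 2 (limma, adjusted p = 0.0614), and did not pass in either.

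Kat5, Kat6a and Kat7 encode TIP60, MOZ and HBO1, the MYST family enzymes of the group. Kat7 (chromosome 11, 95274259 to 95310246, minus strand) had 2144, 2474, 2831 and 2991 normalized counts in ketone libraries 1 to 4 and 3241, 2884, 3441 and 3412 in PBS libraries 1 to 4. Ketone library 4 alone reached the PBS range, and the log2 change of -0.32 (95% interval -0.64 to -0.01) did not pass (limma, adjusted p = 0.126). It was -0.15 without ketone libraries 1 and 2.

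Kat5 (chromosome 19, 5603014 to 5610237, minus strand) had 907, 968, 674 and 725 normalized counts in ketone libraries 1 to 4 and 679, 703, 806 and 840.4 in PBS libraries 1 to 4. Ketone libraries 1 and 2 were above the PBS range and the other ketone libraries were within it or below, with a log2 change of 0.10 (95% interval -0.26 to 0.47). Kat5 overlaps Rnaseh2c on the opposite strand, which had 370 normalized counts in ketone libraries and 446 in PBS libraries. Kat6a (chromosome 8, 22859535 to 22943259, plus strand) had 1288, 2156, 1426 and 1183 normalized counts in ketone libraries 1 to 4 and 1324, 1272, 1515 and 1557 in PBS libraries 1 to 4. Ketone library 2 stood above all others, and the log2 change was 0.06 (95% interval -0.34 to 0.46). Without ketone libraries 1 and 2 the log2 changes of Kat5 and Kat6a were -0.11 and -0.12, below 0 in place of above it.

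The ketone libraries varied more than the PBS libraries. The coefficient of variation was larger in the ketone group for 9 of the 10 genes, against 80.1% of all tested genes, and Kat2a was the exception at 10.3% in ketone libraries and 15.1% in PBS libraries. It was 41.3% in ketone libraries and 9.06% in PBS libraries for Kat2b, and 29.1% and 9.90% for Kat6a. Ketone library 2 held the highest ketone value for 5 of the 10 genes (Ep300, Crebbp, Kat2b, Kat5 and Kat6a), all of them acetyltransferases, against 27.9% of all tested genes. It held the lowest ketone value for Kat2a, Acly, Acss1 and Acss2, and the share of all tested genes lowest there was not worked out.

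Levels of different genes were compared per kilobase of the principal transcript. In PBS libraries the order was Kat7 (911 ± 72.0 normalized counts per kilobase), Acly (765 ± 95.03), Kat5 (352 ± 36.4), Crebbp (307 ± 22.6), Kat2a (287 ± 43.3), Ep300 (172 ± 15.1), Acss2 (156 ± 8.89), Kat6a (156 ± 15.4), Kat2b (122 ± 11.1) and Acss1 (21.2 ± 2.34). Neighbours in this order overlapped between libraries except at the steps from Acly to Kat5, Kat2a to Ep300, Kat6a to Kat2b and Kat2b to Acss1. In ketone libraries all neighbours overlapped, and Kat2a (194 ± 20.1) stood below Ep300 (211 ± 29.3) and Acss2 (203 ± 19.5) in place of above them. Acss1 was at 72.8 ± 30.6 normalized counts per kilobase in ketone libraries. With the length of all exons in place of the principal transcript, Acly came before Kat7 in PBS libraries. Acss2 moved to the ninth place there, at 45.1 normalized counts per kilobase. Kat2a moved up to place 3, Kat6a to 6 and Kat2b to 7, while Kat5 moved down to 5 and Ep300 to 8. In ketone libraries Acss2 then stood below Acss1, at 58.5 and 63.8 normalized counts per kilobase.

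Paralogues were set against each other by their log2 ratio within each library, which does not depend on the scaling between libraries, in 3 pairs with adjusted p over the 3. The Acss2 to Acss1 ratio was 1.27, 1.79, 1.36 and 0.61 in ketone libraries 1 to 4, against 2.48, 2.68, 2.52 and 2.60 in PBS libraries. Every ketone library was below every PBS library, and the mean difference was -1.31 ± 0.25 (SE; two-sided exact permutation p = 0.0286, adjusted p = 0.0429). In linear terms Acss2 had 1.53 to 3.47 times the normalized count of Acss1 in ketone libraries and 5.58 to 6.39 times in PBS libraries.

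The Ep300 to Crebbp log2 ratio was -0.79, -0.80, -0.29 and -0.62 in ketone libraries 1 to 4, against -1.05, -1.05, -0.96 and -0.99 in PBS libraries. It was higher in every ketone library, by 0.39 ± 0.12 (SE; two-sided exact permutation p = 0.0286, adjusted p = 0.0429), although neither gene passed on its own. The smallest p that 70 assignments allow is 0.0286. Ratios of other gene pairs were not tested, so how often they reach this p is not known. Of single tested genes 28.3% did not overlap between the groups. The Kat2a to Kat2b ratio averaged, on the log2 scale, -0.28 ± 0.75 in ketone libraries and 0.61 ± 0.31 in PBS libraries (SD, n = 4 each). Its difference of -0.90 ± 0.41 (SE) did not pass (two-sided exact permutation p = 0.0571, adjusted p = 0.0571), and the groups overlapped through ketone library 1 at 0.55. Without ketone library 1 it was -1.17 and passed (exact permutation, adjusted p = 0.0286). Without any 1 PBS library neither the Ep300 to Crebbp ratio nor the Acss2 to Acss1 ratio passed (exact permutation, adjusted p = 0.0857 in each case). The groups still did not overlap in any of these cases. The exact test without 1 library has fewer assignments, but these still allow a pass, as seen without ketone library 1.

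**Figure D4:**
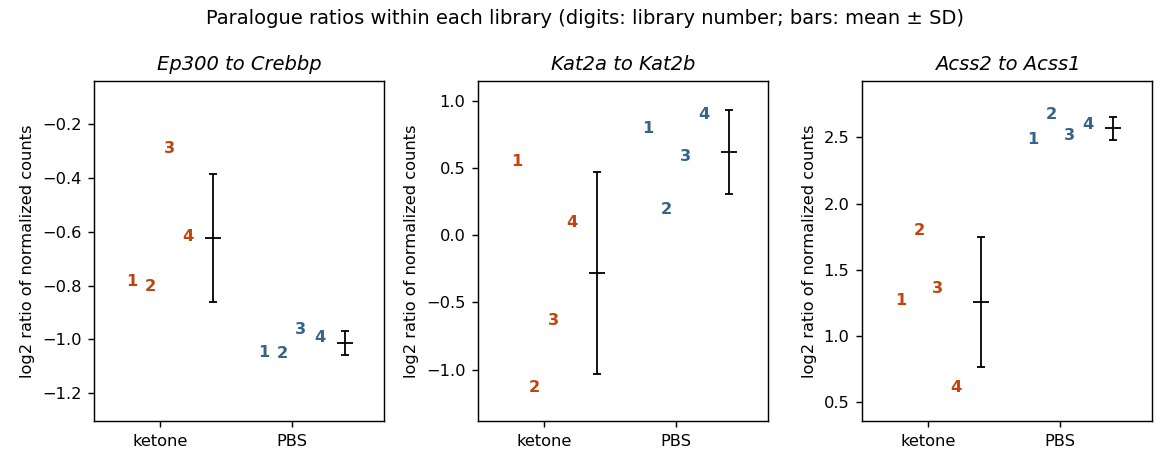
log2 ratio of the normalized counts of 2 paralogues within each library (y axes do not start at 0), with digits as library numbers and bars as mean ± SD. The ketone and PBS libraries do not overlap for Ep300 to Crebbp or for Acss2 to Acss1, and overlap for Kat2a to Kat2b.

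Related genes were counted in 6 lists, each read against the 25.7% of all tested genes that passed, or 33.4% without ketone libraries 1 and 2. Of 15 other acetyltransferases 4 fell and 1 rose (4 to 5 and 0 to 1 when 1 library was left out), a share of 33.3%. Their median log2 change was -0.27, beside -0.01 over all tested genes, and was -0.03 without ketone libraries 1 and 2, where 33.3% passed. Ncoa1, a nuclear receptor coactivator, averaged 7004 ± 1319 normalized counts in ketone libraries and 13004 ± 666 in PBS libraries (log2 change -0.91). Atat1, which acetylates tubulin and not histones, fell by 1.18, and Gtf3c4, a subunit of the polymerase III factor TFIIIC, fell by 0.81 on the log2 scale. Esco1, which acetylates cohesin, rose by 0.58. Among enzymes that act on histones, Hat1 at -0.44, Kat6b at 0.42 and Kat8 at -0.40 did not pass. Hat1 passed with library weights and without ketone library 1 or PBS library 2 (limma, adjusted p = 0.0326, 0.0498 and 0.0393). Without ketone libraries 1 and 2 Kat6b was 0.18 and Kat8 -0.21, and Kat8 was -0.068 without ketone library 2.

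Of 51 subunits 2 rose and 6 fell (1 to 4 and 3 to 6 when 1 library was left out, 5 and 6 without ketone libraries 1 and 2), a share of 15.7% (21.6% without those libraries), with a median log2 change of -0.04. In the TIP60 complex 0 of 17 rose and 2 fell, in SAGA and ATAC 1 of 17 rose and 3 fell, in the MOZ and HBO1 complexes 1 of 8 rose, and in the MSL and NSL complexes 1 of 9 fell. Jade2, a scaffold of HBO1 complexes, averaged 582 ± 183 normalized counts in ketone libraries and 202 ± 25.2 in PBS libraries (log2 change 1.48, limma adjusted p = 0.000507). Yeats2 of the ATAC complex fell by 0.98, Supt3 of SAGA fell by 1.04, and Ruvbl2, an ATPase of the TIP60 complex, fell by 0.81 on the log2 scale. Eny2, of the deubiquitinating part of SAGA, rose by 0.67. Trrap, the scaffold shared by SAGA and TIP60 complexes, did not pass at 0.20, and its change was -0.24 without ketone libraries 1 and 2.

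Of 12 regulators of acetyltransferases 0 rose and 2 fell (0 to 1 and 0 to 4 when 1 library was left out, 1 and 4 without ketone libraries 1 and 2), a share of 16.7% (41.7% without those libraries). Cited2, which binds p300 and CBP, fell by 0.65, and the CREB coactivator gene Crtc1 fell by 0.59 on the log2 scale. Of 28 readers of acetyl-lysine 1 rose and 2 fell (0 to 1 and 1 to 3 when 1 library was left out, 1 and 6 without ketone libraries 1 and 2), a share of 10.7% (25% without those libraries), with a median of -0.06. Mllt1 and Trim28 fell by 0.60 and 0.56, and Bptf rose by 0.82, with 3013 normalized counts in ketone library 2 and 925 to 1423 in ketone libraries 1, 3 and 4, while PBS libraries had 752 to 948. Bptf was 0.30 and did not pass without ketone libraries 1 and 2 (limma, adjusted p = 0.139), and the 1 reader that rose there was Brd2, named after its values were seen.

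In mitochondrial acetyl-CoA and citrate metabolism 2 of 29 tested genes rose and 5 fell (1 to 5 and 2 to 6 when 1 library was left out, 7 and 7 without ketone libraries 1 and 2), a share of 24.1% (48.3% without those libraries), with a median log2 change of -0.02. Pdp1, the phosphatase that activates pyruvate dehydrogenase, averaged 2243 ± 507 normalized counts in ketone libraries and 5623 ± 915 in PBS libraries (log2 change -1.34, limma adjusted p = 0.000184). Of the kinases that inhibit pyruvate dehydrogenase, Pdk1 rose by 0.95, Pdk3 fell by 0.81, and Pdk4 did not pass at 0.02 (0.13 without ketone libraries 1 and 2). Acat1, the thiolase that makes acetyl-CoA in ketone breakdown, fell by 0.63, and Acadm of fatty acid oxidation rose by 0.58. Slc25a1, the citrate carrier that feeds ACLY, did not pass at -0.34, but passed without ketone libraries 1 and 2 at -0.45 and with library weights at -0.47 (limma, adjusted p = 0.0493 and 0.0282).

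Of 26 cytosolic users of acetyl-CoA and SREBP genes 10 fell and 2 rose (8 to 12 and 1 to 3 when 1 library was left out, 9 and 2 without ketone libraries 1 and 2), a share of 46.2% (42.3% without those libraries), with a median log2 change of -0.43 (-0.21 without them). Srebf2, the SREBP gene for sterol synthesis, averaged 4734 ± 1172 normalized counts in ketone libraries and 10054 ± 900.4 in PBS libraries (log2 change -1.11, limma adjusted p = 0.000401). Fasn, fatty acid synthase, averaged 4965 ± 1103 in ketone libraries and 10111 ± 849 in PBS libraries (log2 change -1.05). Srebf1 fell by 0.55 and Mvd fell by 1.49, while Scd1, a fatty acid desaturase, rose by 1.26 and Acat2, a cytosolic thiolase, rose by 0.64. Acaca, acetyl-CoA carboxylase, did not pass at -0.49. Beside these, Acss2 stood at 0.37 and Acly at -0.38, and neither passed.

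**Figure D5:**
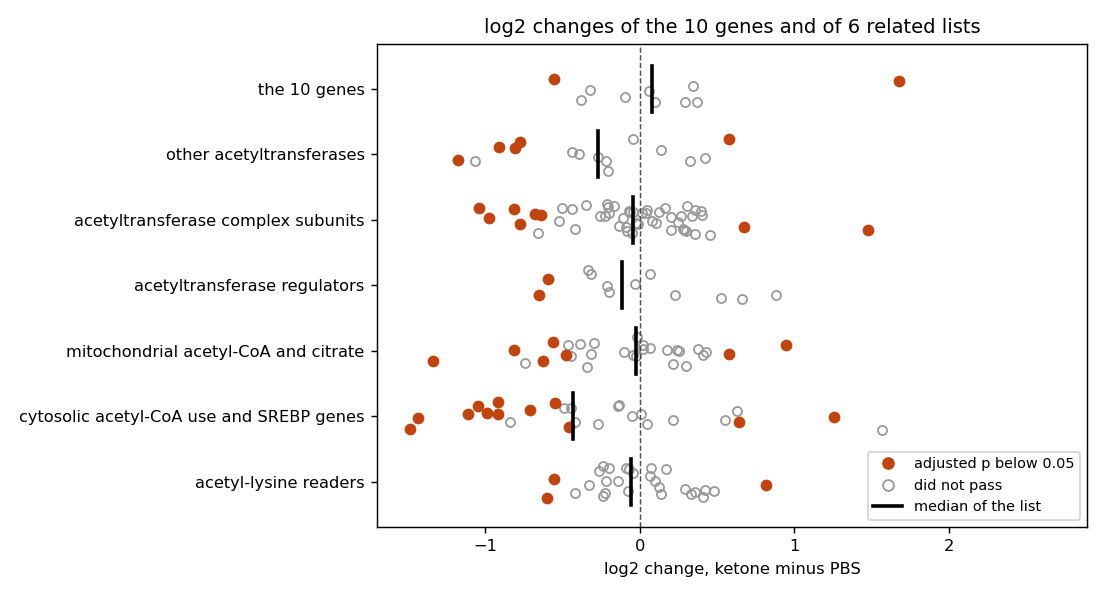
log2 change, ketone minus PBS (x axis), of the 10 genes and of 6 related lists, 1 point per gene, shifted up or down at random for visibility. Filled points passed and bars are list medians, which run from -0.43 for cytosolic use and SREBP genes to 0.08 for the 10 genes.

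Of the 25 genes named from these lists that passed, 13 passed without any 1 library. The call of Esco1 was lost without ketone library 2 or 4 or PBS library 1, 3 or 4. Those of Supt3 and Ruvbl2 were lost without ketone library 2, 3 or 4 or PBS library 1, 3 or 4, that of Eny2 without ketone library 4 or PBS library 1 or 4, and that of Cited2 without ketone library 3 or 4 or PBS library 1, 2 or 3. Crtc1 kept its call without 1 library only when that was ketone library 2. The call of Pdk3 was lost without ketone library 4 or PBS library 1, 3 or 4, that of Acadm without ketone library 3 or 4 or PBS library 1, 2 or 3, and that of Mvd without PBS library 1 or 2. Acat2 lost its call without ketone library 4 or PBS library 1 or 4, Trim28 without ketone library 3 or PBS library 1, 3 or 4, and Bptf without ketone library 1 or 2 or any 1 PBS library. The highest adjusted p among these was 0.122 (limma), for Supt3. Some of the marker sums given beside Acss1 also differed between the groups. With the endothelial mean as a covariate 0 genes passed in each of the 6 lists, beside 3 of all tested genes. So few genes passed anywhere that this count says nothing of these lists, and the part of other cell types was not tested.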

How the data were processed

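RNA-seq of sorted muscle stem cells was analysed from the authors' table of 8 libraries, 4 ketone and 4 PBS, grouped by the treatment label. Per the labels' protocols, cDNA was primed with oligo(dT) by a low-input kit and amplified, so polyadenylated RNA is favoured and PCR copies count as reads. Build mm10 and the tools STAR, Trim Galore, Subread, featureCounts and DESeq2 come from the submitters' processing notes, per the labels; the sources used here give no versions, settings or strand. The deposited unit is a normalized signal per gene: in every library 100% of values were whole multiples of its smallest value above 0, within 0.001, from which depth was read. Of 25239 rows, 2 with a date for a symbol were left out. Every pair of libraries differed by more than counting error (the smallest chi-square over its degrees of freedom was 13.4).

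Values were taken as log2(value + 1), 14022 genes with a mean of at least 10 were kept, and a model with treatment alone was fitted with limma 3.58.1 (R 4.3.3, eBayes with trend), two-sided, with Benjamini-Hochberg adjustment over all genes and a threshold of 0.05. The fit was tested on simulated data with the same dispersion for all genes and both groups. The ketone libraries varied more than the PBS libraries, which that test does not cover. Fold changes on this scale understate changes of low values. Ratios were tested by exact permutation. Positions and lengths are from GENCODE M21 (GRCm38, the same build as mm10), and promoters of 9 of the 10 genes, with none for Kat6a, from RefSeq. The genes, lists, markers and tests were chosen with earlier results of these data known. Named beside the 10 genes are up to 3 passing genes in each direction per list, 12 fixed genes and, for genes that passed, the 3 most similar patterns; of the genes this rule names, 2 are not reported here. Count tests were planned as alternatives and not run: the steps of ketone libraries 3 and 4 are close to 1, which was not accepted as a recovery of reads, so the depths and the comparison with counting error assume that 1 step is 1 read.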

Additional observations from a re-analysis of the deposited data

Results flagged for a closer look

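In 2 of 26 groups of 4 values (10 genes and 3 ratios, in each treatment) 1 library lay far from the other 3, by the gap to its nearest neighbour over the group's range, and chance gives about 1 in 20. Crebbp was at 3680 normalized counts in PBS library 4, with the other PBS libraries at 3163 to 3242. Kat2b was at 644 normalized counts in PBS library 2, with the other PBS libraries at 534 to 551.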

How the results depend on the processing

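The alternatives were pseudocounts of 0.5 and 5, no filter, a mean of at least 50, quantile normalization, equal totals, TMM scaling, library weights, robust estimation, the replicate block, leaving out each library or ketone libraries 1 and 2, and the endothelial covariate. Acss1 kept its direction in all 20 and its call in all except the covariate. The number of the 10 genes that passed was 1 with equal totals, 0 with the covariate and 1 to 3 without 1 library. Over all genes, 3600 passed, 3 with the covariate and 2354 to 4076 without 1 library. The covariate follows the groups and widens the errors.

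Changes of sign were those of genes that had not passed, except with the covariate. Crebbp was 0.0061 with quantile normalization and Pdk4 -0.0038 with TMM scaling. With library weights Kat5 was -0.0012, Kat6a -0.065 and Trrap -0.10. Without 1 library Kat6a ran from -0.12 to 0.16, Trrap from -0.028 to 0.35 and Pdk4 from -0.061 to 0.18, each lowest without ketone library 2. Without ketone libraries 1 and 2 Kat5 was -0.11, Kat6a -0.12 and Trrap -0.24. With the covariate Kat5 was -0.75, Kat6a -0.28, Kat7 0.0043, Gtf3c4 0.23, Bptf -0.46, Acaca 0.14, Kat8 0.54 and Trrap -1.18. The cause was not tested.

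Without 1 library the Ep300 to Crebbp ratio differed by 0.28 to 0.45, the Acss2 to Acss1 ratio by -1.49 to -1.09 and the Kat2a to Kat2b ratio by -1.17 to -0.61. Without ketone libraries 1 and 2 the Ep300 to Crebbp ratio differed by 0.56 and the Acss2 to Acss1 ratio by -1.58, and neither passed, since 2 against 4 libraries cannot go below p = 0.0667 in the exact test.

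Library numbers are shared between the groups, but same-numbered libraries did not deviate together (correlations across genes of 0.11, -0.01, 0.003 and -0.06 for numbers 1 to 4). With the replicate block 3595 genes passed and no call of the 10 genes changed, while the exact sign-flip test of the ratios (0.39 and -1.31) gave adjusted p = 0.125, the smallest that 4 pairs allow. Depth limits Acss1 most, the lowest of the 10 genes, with 67.2 normalized counts in its lowest library. Count tests (edgeR and DESeq2) were not run.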
